A study of Homo sapiens with 6 samples.

Results

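The D-type cyclins, their partner kinases CDK4 and CDK6 and the inhibitors of these kinases were examined in REH, a human line grown from a B-cell precursor acute lymphoblastic leukaemia, after a hairpin against STAT3. The genes were chosen by name and not by their values, as the rows CCND2, CCND3, CDK4, CDK6, CDKN1B, CDKN2A, CDKN2C and CDKN2D of the authors' deposited table, 8 of 26364 genes. Total RNA came from 3 cultures transduced by lentiviral particles with a short hairpin RNA against STAT3 (shSTAT3) and 3 transduced with a scramble hairpin, each from an independent experiment. All 6 cultures were under puromycin for 3 days and had dead cells removed before RNA was taken. Both groups are of 1 cell line, and the sequence of the hairpin is not given in the sources used here.

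D-type cyclins are the regulatory subunits that bind CDK4 and CDK6 and let them phosphorylate RB, which holds E2F transcription factors in check before S phase. INK4 inhibitors (CDKN2A, CDKN2C, CDKN2D) bind the kinases and keep cyclin out, whereas CIP/KIP inhibitors such as p27 (CDKN1B) bind cyclin and kinase together. In the B lineage, cyclin D3 is the D-type cyclin that pre-B cells depend on to divide, and CDK6 is abundant in many lymphoid leukaemias.

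CCND3, CDKN2C and CDKN2D were lower and CDK6 was higher in shSTAT3 cells, and CCND2, CDK4 and CDKN1B did not pass the test. CCND3 was at 63.2% of its scramble level, CDKN2C at 71.0%, CDKN2D at 83.3% and CDK6 at 133% per the authors' deposited table. CDKN2A had no read in any of the 6 libraries. Of the 7 genes tested, 4 had a Benjamini-Hochberg adjusted p under 0.05 per the authors' deposited table, 1 higher and 3 lower, where 44.5% of the 12061 tested genes passed (21.3% higher and 23.2% lower). All 7 have means of at least 340 normalized counts (reads divided by a size factor for the depth of each library), and 52.9% of the 6672 tested genes with means at or above that of CCND2 passed, so 4 of 7 is a share near the background. Asking for at least 1.5-fold as well left CCND3 alone, 1 of 7, where 17.3% of tested genes passed.

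The table holds 1 mean per gene over all 6 libraries and nothing by library, so a change below is a fold between groups with the standard error that its p-value implies. The folds are shrunken toward 0. Whether the p-values belong to the shrunken folds is not known here, so the standard errors and intervals are approximate. Where a level is given for each group, it was worked out from the mean and the fold change and was not measured by library. Depth differed little, with size factors of 0.935 to 1.13 around a mean total of 11485068 normalized counts. STAT3 stood at 29.8% of scramble per the authors' deposited table, and because the table does not name the numerator of its folds, this fall was used to set the direction of all others. Of 15 B-cell precursor markers 14 had means of 10 or more and VPREB1 was at 0. T-cell markers lay between 0 and 26.6, with CD3D, CD3G and CD8B at 0. Fibroblast and epithelial markers lay between 0 and 806, highest for PDGFRB. Myeloid markers lay between 1.85 and 2330, highest for MPO. Of 14 tested B-cell precursor markers 2 were higher and 6 lower per the authors' deposited table, where 21.3% of all tested genes were higher and 23.2% lower. Among the other tested markers 2 of 2 fibroblast and epithelial and 2 of 5 myeloid genes were lower and 1 myeloid gene was higher per the authors' deposited table, and their part in the results was not tested. In bulk RNA, fewer cells in a phase of the cycle and less RNA per cell cannot be told apart.

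Start regions are shown for the members whose levels changed most, CCND3, CDKN2C and CDK6, and for CDK4, the kinase that did not pass the test. RefSeq windows on GRCh38.p14, from 250 bases before to 50 after an annotated start, matched 7 of the 8 genes with 13 windows, and the window nearest a principal transcript start in GENCODE 29 was taken. They read 5′ to 3′ on the gene's strand, and capitals mark the E-box CACGTG, the sequence that MYC with MAX is known to bind.
CCND3, chr6:41941759-41942058, minus strand: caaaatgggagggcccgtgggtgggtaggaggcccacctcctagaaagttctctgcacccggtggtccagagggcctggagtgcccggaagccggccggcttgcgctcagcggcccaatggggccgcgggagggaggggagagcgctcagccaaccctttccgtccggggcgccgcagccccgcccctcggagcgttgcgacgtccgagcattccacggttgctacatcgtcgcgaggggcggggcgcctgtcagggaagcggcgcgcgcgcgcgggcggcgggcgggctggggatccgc
CDKN2C, chr1:50960495-50960794, plus strand: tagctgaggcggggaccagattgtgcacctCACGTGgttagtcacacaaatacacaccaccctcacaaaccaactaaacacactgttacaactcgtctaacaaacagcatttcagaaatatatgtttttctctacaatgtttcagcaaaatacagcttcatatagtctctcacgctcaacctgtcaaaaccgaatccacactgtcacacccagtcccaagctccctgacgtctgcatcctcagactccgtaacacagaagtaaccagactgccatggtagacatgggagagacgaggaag
CDK6, chr7:92836524-92836823, minus strand: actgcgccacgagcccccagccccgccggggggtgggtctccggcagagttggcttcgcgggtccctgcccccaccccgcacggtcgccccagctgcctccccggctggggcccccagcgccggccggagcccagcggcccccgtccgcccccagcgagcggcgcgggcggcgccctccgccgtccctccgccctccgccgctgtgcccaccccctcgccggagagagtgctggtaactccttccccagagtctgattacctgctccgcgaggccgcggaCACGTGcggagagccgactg
CDK4, chr12:57752261-57752560, minus strand: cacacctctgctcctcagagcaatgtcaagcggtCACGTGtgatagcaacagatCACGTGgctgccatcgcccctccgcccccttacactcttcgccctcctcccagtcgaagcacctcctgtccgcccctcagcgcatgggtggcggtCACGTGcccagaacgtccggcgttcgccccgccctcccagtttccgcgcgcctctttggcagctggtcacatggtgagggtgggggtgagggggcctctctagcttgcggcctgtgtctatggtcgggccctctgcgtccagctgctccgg
The CDK4 window held 3 E-boxes, which began 216, 196 and 101 bases before the start. The CDKN2C window had 1 E-box, 220 bases before its start, the CDK6 window had 1 just after its start, and the CCND3 window had none. Another CDKN2C window had an E-box 69 bases before its start. A further CDKN2C window, whose start lies 11 bases from a principal transcript start, had none. In all, 4 of the 13 windows of these genes held an E-box. Of all 35116 windows 7.26% held an E-box on either strand and 0.094% held 3 or more. The STAT motif TTCNNNGAA was in 0 of the 13 windows of these genes, against 7.66% of all windows. An E2F motif, sought as TTTCCCGC, TTTCGCGC, TTTGCCGC or TTTGGCGC on both strands, was also in 0 of 13, against 3.31% of all. At such shares 13 windows would hold few matches or none, so 0 of 13 shows no depletion of either motif. These are matches of letters within 300 bases, and a window without a match says nothing of sites elsewhere.

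Cyclin D3 was by far the main D-type cyclin transcript. CCND3 (ENSG00000112576.12, chromosome 6 from 41934933 to 42050357, minus strand) averaged 5999 normalized counts per the authors' deposited table, higher than 98.0% of tested genes. That is 1034 normalized counts per kb of its 5802 exonic bases. CCND2 (chromosome 12 from 4273772 to 4305350, plus strand) had a mean of 340 per the authors' deposited table, or 47.6 per kb. Per kb of exon, CCND3 was thus 21.7 times CCND2, and per kb of the longest annotated transcript 47.7 times. CCND1, the D-type cyclin that many solid tumours overexpress, had a mean of 5.20 per the authors' deposited table, which corresponds to 32 reads over the 6 libraries, between 3 and 11 in each. CCND1 has a p of 0.496 and no adjusted p per the authors' deposited table and was called in neither direction.

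CCND3 also had the largest and most precise change of the group. Its log2 fold change was −0.66 per the authors' deposited table (adjusted p = 4.24e-18), with a standard error of 0.07 and a 95% interval of −0.80 to −0.52. Its mean and fold correspond to about 4646 normalized counts in shSTAT3 cells and 7351 in scramble cells. In size this fold lay above that of 86.0% of tested genes. The log2 fold change of CCND2 was −0.20 per the authors' deposited table (adjusted p = 0.352), with an interval of −0.55 to 0.14 that includes 0. Its standard error of 0.17 was the largest among these genes, above the median of 0.12 for all tested genes. The folds of the cyclins differed by −0.46 on the log2 scale, CCND3 less CCND2. That difference was not tested, as a table without values per library cannot give its error. The antisense gene CCND2-AS1 shares 126 exonic bases with CCND2 and had 1 read in all 6 libraries. In GENCODE 29 a same-strand gene, AC008012.1, shares 989 exonic bases with CCND2, so reads there may not be unique to it.

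**Figure D1:**
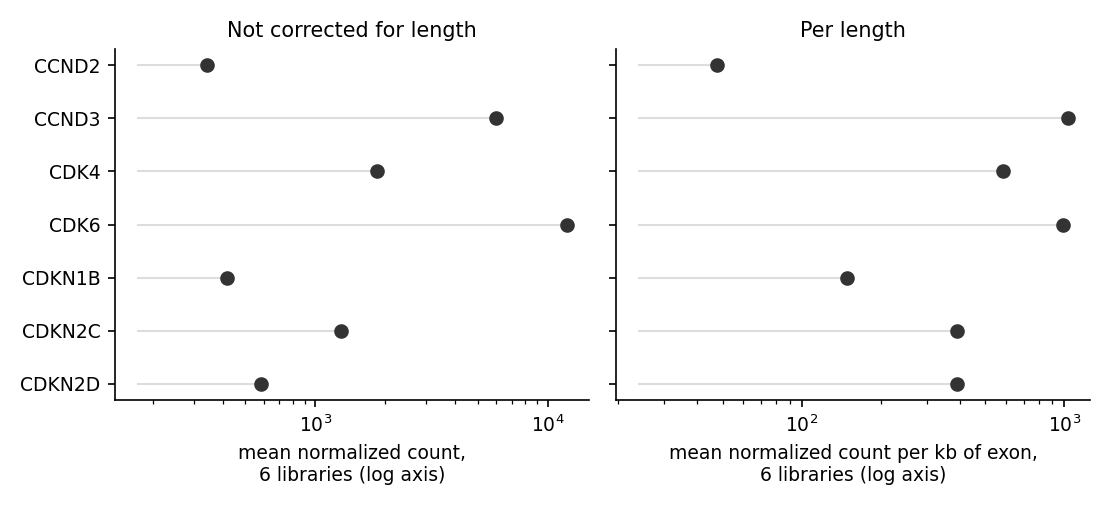
Mean normalized count over the 6 libraries for the 7 genes with reads, as deposited (left) and per kb of annotated exon (right), both on log axes. CDK6 leads the left panel at 12113 and CCND3 the right panel at 1034 per kb, and CCND2 is lowest in both.

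Both kinases were well expressed. CDK6 (chromosome 7 from 92604921 to 92836594, minus strand) had a mean of 12113 per the authors' deposited table, above 99.5% of tested genes. Per kb of its 12260 exonic bases it stood at 988, below CCND3. CDK4 (chromosome 12 from 57747727 to 57756013, minus strand) had a mean of 1846 per the authors' deposited table, or 583 per kb. Per kb of exon, CDK6 was 1.70 times CDK4, and per kb of the longest annotated transcript 1.17 times. The order of all levels per kb was CCND3, CDK6, CDK4, CDKN2C, CDKN2D, CDKN1B and CCND2, and the spread of a level over libraries is not known, so neighbours in this order could not be compared against it.

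CDK6 was the member that rose. Its log2 fold change was 0.41 per the authors' deposited table (adjusted p = 1.64e-05), with a standard error of 0.09 and an interval of 0.24 to 0.59. This corresponds to about 13834 normalized counts in shSTAT3 cells and 10392 in scramble cells. The log2 fold change of CDK4 was 0.13 per the authors' deposited table (adjusted p = 0.158), with an interval of −0.02 to 0.29. The interval of CDK4 overlaps that of CDK6, and their difference of 0.28 on the log2 scale was not tested. CDK4 shares 1369 of its 3168 exonic bases with TSPAN31 on the opposite strand. Reads from the shared bases may not be unique to CDK4, and how they were counted is not stated. The CDK4 value, its level per kb and its ratio to CDK6 are therefore uncertain. TSPAN31 averaged 270 normalized counts, with a log2 fold change of −0.05 per the authors' deposited table (adjusted p = 0.797).

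**Figure D2:**
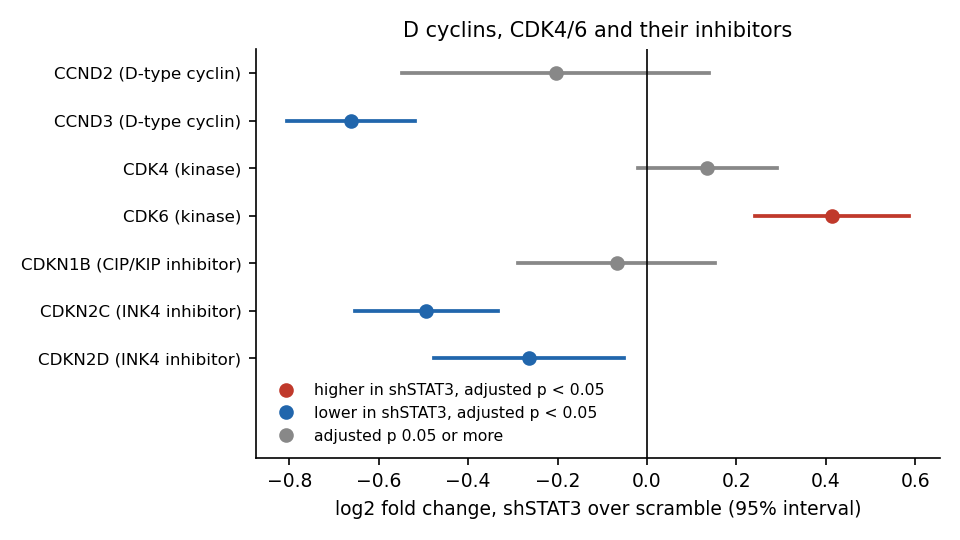
Log2 fold change of shSTAT3 over scramble for each tested gene, with the 95% interval implied by its p-value. CDK6 lies to the right of 0 at 0.41, CCND3, CDKN2C and CDKN2D lie to the left with intervals clear of 0, and the intervals of CCND2, CDK4 and CDKN1B cross 0.

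Both INK4 inhibitors with reads were lower in shSTAT3 cells. CDKN2C, which encodes p18 (chromosome 1 from 50960745 to 50974633, plus strand), averaged 1293 normalized counts, with a log2 fold change of −0.49 per the authors' deposited table (adjusted p = 1.49e-08). Its standard error was 0.08 and its interval −0.65 to −0.33, and the levels correspond to about 1074 normalized counts in shSTAT3 cells and 1513 in scramble cells. CDKN2D, which encodes p19 (chromosome 19 from 10566462 to 10569059, minus strand), averaged 585 normalized counts, with a log2 fold change of −0.26 per the authors' deposited table (adjusted p = 0.0363). Its interval of −0.48 to −0.05 ends close to 0, and about 532 normalized counts in shSTAT3 cells stand against 638 in scramble cells. When p-values are adjusted over every gene that has one, without the authors' filter on low means, CDKN2D no longer passes (adjusted p = 0.0526). Per kb of exon these inhibitors were nearly level, at 390 for CDKN2C and 389 for CDKN2D. Per kb of the longest annotated transcript CDKN2C was 1.08 times CDKN2D. Per kb of exon their order differs between groups, with CDKN2C at 0.916 times CDKN2D in shSTAT3 cells and 1.07 times in scramble cells. These ratios depend on the length used, and their difference was not tested.

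The CIP/KIP inhibitor CDKN1B (chromosome 12 from 12715058 to 12722371, plus strand) averaged 417 normalized counts, with a log2 fold change of −0.07 per the authors' deposited table (adjusted p = 0.657). Its interval of −0.29 to 0.15 leaves room for a change to between 81.9% and 111% of scramble. The protein p27 is controlled largely by degradation, which RNA does not show.

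**Figure D3:**
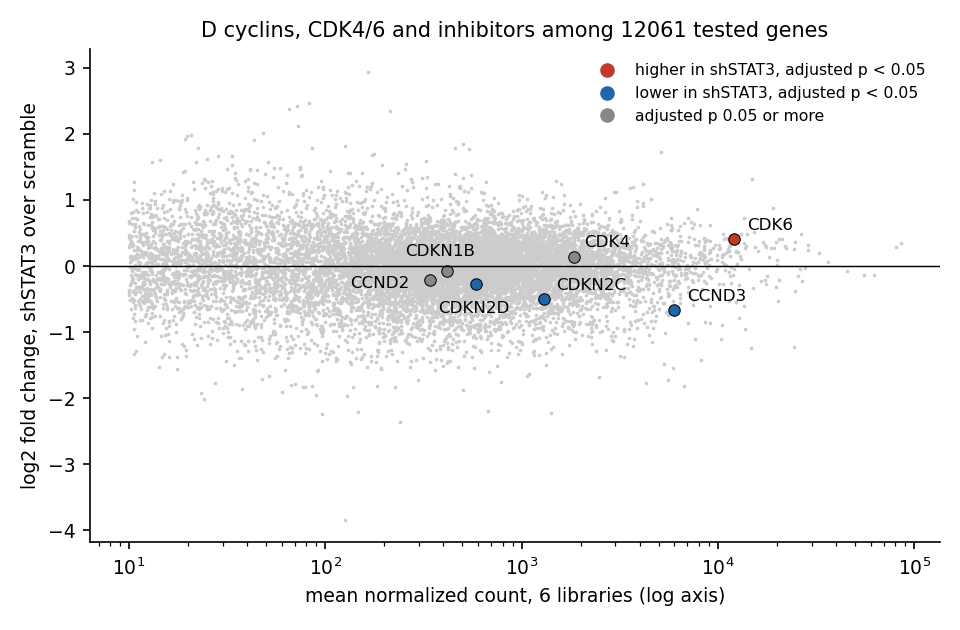
Log2 fold change of shSTAT3 over scramble against mean normalized count (log axis) for the 12061 tested genes in grey, with the D-type cyclins, kinases and inhibitors in colour. CCND3 and CDK6 stand at the high end of expression on opposite sides of 0, and all 7 lie well within the cloud of other genes.

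CDKN2A, which encodes the INK4 protein p16 and, from another reading frame, the p53 regulator ARF, is one of the genes most often deleted in acute lymphoblastic leukaemia. It lies on chromosome 9 from 21967753 to 21995301 and had a mean of 0 per the authors' deposited table, as did CDKN2B, its INK4 neighbour, and CDKN2B-AS1. A count of 0 allows up to 3 reads over the 6 libraries, a mean of about 0.5, and covers counting error only. The surrounding genes were examined after this value was seen. Every gene with a GENCODE position from MLLT3 to LINC01241, 37 genes over 5.47 Mb (chromosome 9 from 20341665 to 25812968), had a mean under 1, and 31 of them were at 0. Of these 37 genes 27 are protein-coding, many of them interferon genes, and 21 of the 27 were at 0. Others are microRNAs and long noncoding RNAs. Of all 26364 genes 8589 were at 0, so a mean of 0 alone is not rare. The run includes MTAP, a methionine salvage enzyme of most tissues, at 0.295, and FOCAD and KLHL9 at the same mean, per the authors' deposited table. Outward from the run, SLC24A2 had a mean of 8.16 and ACER2 of 157 on the lower side and CAAP1 of 283 on the upper side per the authors' deposited table. Within 5 Mb of CDKN2A, 9 of 15 protein-coding genes outside the run had means of 100 or more, RPS6 at 32590 among them.

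The few reads in the run were unevenly spread. It held 12 reads in all, and 9 came from the same library, the one with the largest size factor, 1.13. All 7 reads of MTAP, KLHL9, FOCAD and HACD4 were in that library. It also held 26.8% of the 1353 genes that have a single read, and 11 of the 32 reads of CCND1. Reads recovered from means carry no sample label, so this library was placed in neither group, and its part in the results was not tested. DNA copy number was not measured here.

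**Figure D4:**
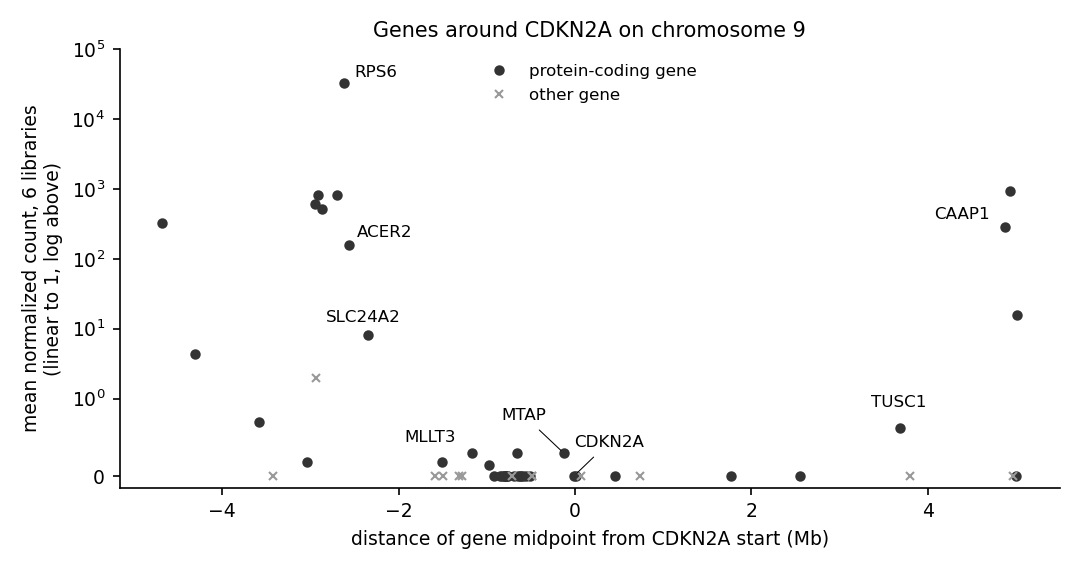
Mean normalized count over the 6 libraries (linear to 1, log above) of genes within 5 Mb of the CDKN2A start, by distance of the gene's midpoint in Mb. Between SLC24A2 and CAAP1 every gene lies below 1, and RPS6, ACER2 and CAAP1 outside it lie above 100.

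Other genes of G1 control were grouped by role in 8 lists of 103 distinct genes, written from textbook roles with earlier results of these data known. Of the 92 tested, 19 rose and 36 fell per the authors' deposited table, where 21.3% of all tested genes rose and 23.2% fell, and the median over all tested genes was a log2 fold change of 0.003. Among 20 pocket proteins, E2F factors and G1/S genes 14 fell and 2 rose, with a median of −0.58. MYBL2, E2F1 and CCNA2, a cell cycle transcription factor, an activating E2F and cyclin A, were at 49.9%, 48.5% and 47.7% of scramble per the authors' deposited table (adjusted p = 6.15e-41, 1.98e-36 and 1.21e-35). RB1 itself, the main substrate of cyclin D kinases, was at −0.65 per the authors' deposited table (adjusted p = 3.86e-09). E2F4 and E2F6, which act mainly as repressors, were the genes that rose, at 0.30 and 0.35 per the authors' deposited table (adjusted p = 0.00451 and 0.0257). RB1, E2F4, E2F6 and, above, CCND1 and TSPAN31 were named after their values were seen.

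Of 21 other cyclins tested 9 fell and 4 rose. That is 61.9% called, against 44.5% of all tested genes and 52.9% of those with means at or above that of CCND2. Their median was 0.09 although more fell than rose. The mitotic cyclins CCNB2 and CCNB1 were at −1.10 and −0.94 per the authors' deposited table (adjusted p = 1.73e-38 and 1.18e-24), past the −0.66 of CCND3. Of 17 other cyclin-dependent kinases 5 fell and 4 rose (median −0.09). Their share called was 52.9%, the same as among tested genes with means at or above that of CCND2. CDK1 and CDK2, the kinases of mitosis and S phase, were at −1.09 and −0.75 per the authors' deposited table (adjusted p = 8.47e-28 and 2.35e-17). CDK16, a kinase of the PCTAIRE group, was at 0.65 per the authors' deposited table (adjusted p = 2.96e-14), so a rise among kinases was not confined to CDK6.

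Of 4 other CDK inhibitors CDKN2B was at 0 and 1 of 3 tested was called. CDKN3, a phosphatase that acts on CDK1 and CDK2, was at −1.02 per the authors' deposited table (adjusted p = 9.09e-11). CDKN1A, which encodes the p53 target p21, and CDKN1C, which encodes p57, were at 0.12 and −0.06 per the authors' deposited table (adjusted p = 0.682 and 0.809). The standard error of CDKN1A was 0.22, above the median of 0.08 for tested genes with means of 1000 or more, so a change in either direction remains possible.

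Of the 6 genes that fold or activate CDK4 and CDK6, 4 fell and 1 rose (median −0.38), where 23.2% of all tested genes fell and 21.3% rose. HSP90AA1 and HSP90AB1, the chaperones that hold newly made CDK4, were at −1.23 and −0.53 per the authors' deposited table (adjusted p = 6.99e-34 and 1.53e-11). CDC37, which hands kinases to HSP90, was at 0.28 per the authors' deposited table (adjusted p = 0.00171). Of the CDK-activating kinase, CCNH and MNAT1 were at −0.36 and −0.41 and the catalytic subunit gene CDK7 at 0.05 per the authors' deposited table (adjusted p = 0.0136, 0.00664 and 0.799).

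Of 9 genes in p27 turnover 3 rose and 2 fell (median 0.01). That is 55.6% called, near the background of 52.9% for tested genes with means at or above that of CCND2. RNF123, a ligase subunit for p27 in G1, was at 0.68, CKS1B, the cofactor with which SKP2 recognises p27, at −0.65 and CUL1, the scaffold of that ligase, at −0.31 per the authors' deposited table (adjusted p = 1.44e-09, 1.41e-06 and 0.000191). Of 11 tested in D-type cyclin turnover 4 rose and 2 fell (median 0.10), also a share near the background. FBXO31, an F-box protein that targets cyclin D1, was at 0.66, CUL4B, a ligase scaffold, at −0.46 and CDC27, a subunit of the anaphase-promoting complex, at −0.40 per the authors' deposited table (adjusted p = 6.07e-10, 0.00024 and 0.0008). Of 11 transcription regulators 4 fell and 1 rose (median −0.11), near the background share. KMT2A, a histone methyltransferase, was at 0.83, IKZF1, a lymphoid transcription factor, at −0.54 and STAT5A, a paralog of STAT3, at −0.49 per the authors' deposited table (adjusted p = 2.5e-22, 4.26e-09 and 5.35e-05).

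**Figure D5:**
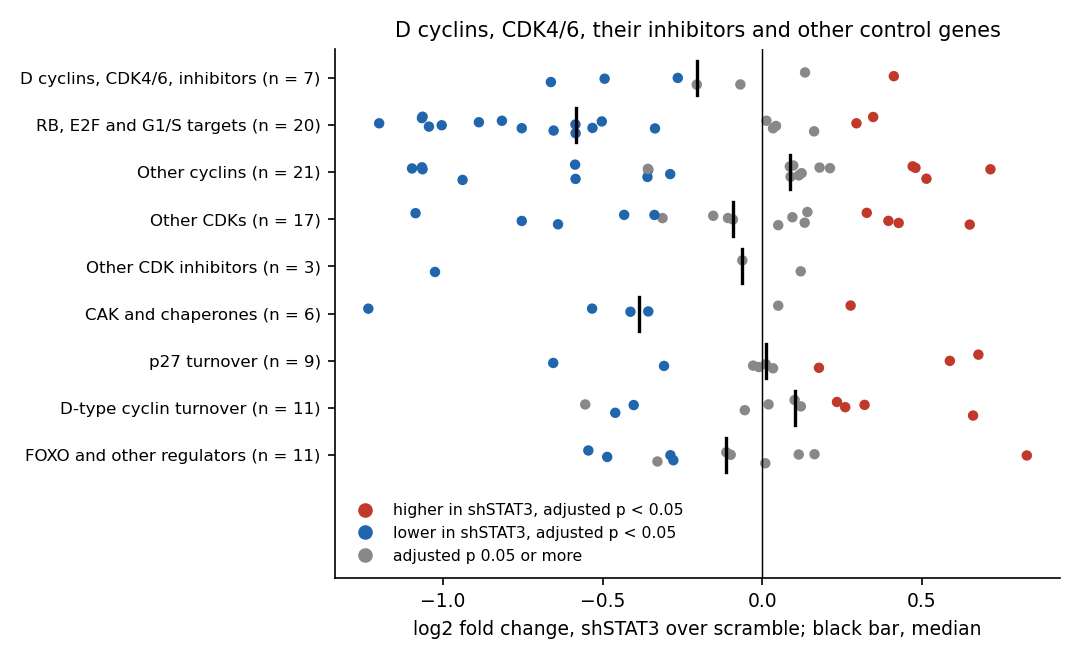
Log2 fold change of shSTAT3 over scramble for the D-type cyclins, CDK4, CDK6 and inhibitors (top row) and for the tested genes of 8 lists; each point is a gene and black bars are medians. The median of RB, E2F and G1/S targets lies furthest left at −0.58, against −0.20 in the top row.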

How the data were processed

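RNA of 3 shSTAT3 and 3 scramble cultures of REH was made into TruSeq RNA v2 libraries, per the labels' protocols. Reads were handled with DESeq2, featureCounts, Picard, Bowtie2, Trimmomatic and bcl2fastq 2.19 on hg38, per the submitters' processing notes. Neither annotation nor use of strand is given in the sources used here. The deposited table gives a mean signal over the libraries, headed baseMean and read here as counts divided by size factors. It also gives a log2 fold change computed by the authors, and the authors' p-value and adjusted p.

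A gene was called at the authors' adjusted p under 0.05; 12061 genes have one, with means of 10.0 or more. Standard errors are the fold change over the normal quantile of its p. Folds are shrunken toward 0: the 1353 genes with 1 read lie within 0.0593 of 0. As the table has no values per library, no model was refitted.

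Exon lengths and positions came from GENCODE 29 on GRCh38, the build of hg38. Reads behind low means were recovered as whole multiples of 6 library steps within 4e-09. The genes and lists were chosen with earlier results of these data known. Named genes are the 8, STAT3, up to 3 called genes of smallest adjusted p in each list and 2 short lists in full; exceptions are marked. Alternatives were other thresholds, filters, centring and a fit on mean, length and GC content. Steps were tested on simulated data. Python 3.11.15 was used with scipy 1.17.1, matplotlib 3.10.9, pandas 2.3.3 and numpy 2.4.6.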

Additional observations from a re-analysis of the deposited data

How the results depend on the processing

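Requiring at least 1.5-fold beside the adjusted p left 1 of the 8 genes called, CCND3, with 1 lower and 0 higher, where 17.3% of tested genes passed; in the other lists 23 genes passed, 6 higher and 17 lower. Adjusted over every gene with a p, CDKN2D was at the same −0.26 with an adjusted p of 0.0526. At an adjusted p under 0.01 CDKN2D was also lost, leaving 3 called. Without a length correction CDK6 ranked 1 and CCND3 ranked 2 by level. No other direction or call among the 7 tested genes changed under centring, the filters or the fit on mean, length and GC content. No paired analysis was possible because the table holds no values per sample; leaving out replicates could not be run for the same reason. The widest interval was that of CCND2, from 68.4% to 110% of scramble; the cause was not tested.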

Other observations

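Genes that carry the names of members through their protein partners also stand in the table and belong to no list; they were chosen after their values were seen. CDKN2AIP, which encodes a partner of ARF, averaged 463 normalized counts, with a log2 fold change of −0.58 per the authors' deposited table (adjusted p = 3.09e-06). Its relative CDKN2AIPNL was at −0.40 per the authors' deposited table (adjusted p = 0.00959). CCNDBP1, which encodes a D-type cyclin binding protein, had −0.21 (adjusted p = 0.0717) per the authors' deposited table and was not called.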
